A study of Mus musculus with 3 samples.

Results

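The 10 genes described here encode the proteins that decide whether a cell passes from the G1 stage into DNA replication: the D cyclins (Ccnd1, Ccnd2, Ccnd3), their kinase partners (Cdk4, Cdk6), 4 inhibitors of cyclin-dependent kinases (Cdkn1a, Cdkn1b, Cdkn1c, Cdkn2b) and Rb1, the substrate of those kinases. They were taken by symbol from the 31053 genes of the deposited count tables, and all 10 were found. Epidermis of the ear was taken at the age of 9 weeks from mice of the inbred strain C57BL/6N, for which the labels name no treatment or altered gene, and its cells filled 3 single-cell libraries of 1 group. Dispase was used to lift the epidermis, trypsin to free its cells from the lower face, and the cells were frozen before 10x Genomics 5′ libraries were made. The libraries held 6078 cell barcodes and 68583868 UMIs in all (unique molecular identifiers, each standing for 1 captured transcript), from 15926683 to 28176712 UMIs a library. No label says whether the libraries came from separate animals. The p-values measure how much the differences between groups vary from library to library, and that spread may be technical.

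Cells needed 500 genes and no more than 10% of UMIs from mitochondria. Of the 5340 that passed, 5039 fell into 5 groups set by keratins, loricrin and mitosis genes, none of them among the 10. Basal cells, the layer on the basement membrane that divides, had at least 0.5% of their UMIs in Krt5 and Krt14 together and less than that in Krt1 and Krt10. They were called resting with fewer than 2 UMIs of Ube2c, Cdc20, Ccnb1, Cenpa and Cenpf (378, 824 and 777 cells in replicates 1, 2 and 3) and cycling with 5 or more (79, 104 and 155 cells). Transitional cells had both keratin pairs at 0.5% or more (31, 68 and 97 cells). Spinous cells, which have left the basal layer, had only Krt1 and Krt10 at that share and Lor, the gene of loricrin, under 1% of UMIs (360, 918 and 823 cells). Granular cells, of the last living layer, had Lor at 1% or more whatever their keratins (57, 163 and 205 cells). The mitosis genes mark G2 and M, so cells in DNA replication stayed among the resting group, which was therefore also split by replication genes as described with that comparison.

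As background, D cyclins are made in response to growth signals and bind CDK4 or CDK6. The active pair phosphorylates the retinoblastoma protein and its relatives, which then release E2F factors, and E2F factors switch on cyclin E and the genes of DNA replication. The INK4 inhibitors, p15 from Cdkn2b among them, bind CDK4 and CDK6 and keep D cyclins off. The Cip/Kip inhibitors p21 (Cdkn1a), p27 (Cdkn1b) and p57 (Cdkn1c) block cyclin E and A with CDK2, and also take part in assembling D cyclins with their kinases. In the epidermis, cells leave the cycle as they leave the basal layer, and p21 is known both as a target of p53 and as a gene of early keratinocyte differentiation.

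Markers not used by the rule followed the group names. Levels here and below are CPM, UMIs per 1000000 UMIs of a library and group. The 7 basal markers summed to 3063 to 3235 CPM in resting basal cells and 468 to 558 in spinous cells, the 7 spinous markers to 768 to 1640.2 and 18996 to 20414, and the 8 granular markers to 363 to 667 in spinous and 35550.2 to 46086 in granular cells. Markers of other cells were checked as well. Follicle markers, mostly Krt15 and Krt17, summed to 1230.1 to 1383 in resting basal, 301 to 440.5 in transitional and 16.4 to 61.6 in spinous cells. The T cell list was nearly all Thy1, at 389 ± 36.1 in cycling basal cells, where Trdc, Cd3e and Nkg7 were at 0, and most of the Langerhans cell sum in granular cells was Epcam (799 ± 84.4). Melanocyte markers summed to at most 2.74 CPM in any library of the 5 groups, endothelial markers, all as Pecam1, to at most 20.0, and fibroblast markers to at most 25.3. Sebocyte markers summed to 85.6 to 97.2 in resting basal and 152 to 166 in spinous cells, a rise of Scd1 alone (from 44 ± 10.4 to 151 ± 8.46), as Mgst1 and Plin2 fell and the median log2 fold change of these 3 genes was -1.79. Whether other cells contribute to the differences below was not tested. Median UMIs per cell ran from 7211.5 to 11386.5 in the resting basal libraries and from 18540.0 to 28482 in the granular ones. Each pair of libraries shared from 3 to 9 barcodes.

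Ccnd1 and Ccnd2 were the D cyclins of resting basal cells and fell 18.3-fold and 17.2-fold in spinous cells, while Ccnd3 fell 1.49-fold. Cdkn1a rose 10.5-fold, Cdkn2b 68.2-fold and Rb1 5.72-fold over the same span. Cells with mitosis transcripts shared part of this pattern: against resting basal cells Ccnd2 fell 7.0-fold, Ccnd1 fell 2.32-fold and Rb1 rose 3.68-fold. In them Cdkn1b and Cdkn1c also rose, 1.59-fold and 3.05-fold, and Cdkn2b was at 1.26 CPM against 1.42. Cdk6 rose 1.93-fold in spinous cells and fell 5.10-fold in granular cells. Levels are given by library or as mean ± SD (n = 3 libraries). UMI counts at transcript 5′ ends give 1 count a molecule whatever its length, so levels of different genes are set side by side below. Differences between genes in capture and counting, other than length, were not tested. Folds and tests come from edgeR's quasi-likelihood test on summed counts, scaled by TMM (a factor that balances most genes between profiles), with Benjamini-Hochberg adjustment over every tested gene and a call at adjusted p under 0.05.

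**Figure D1:**
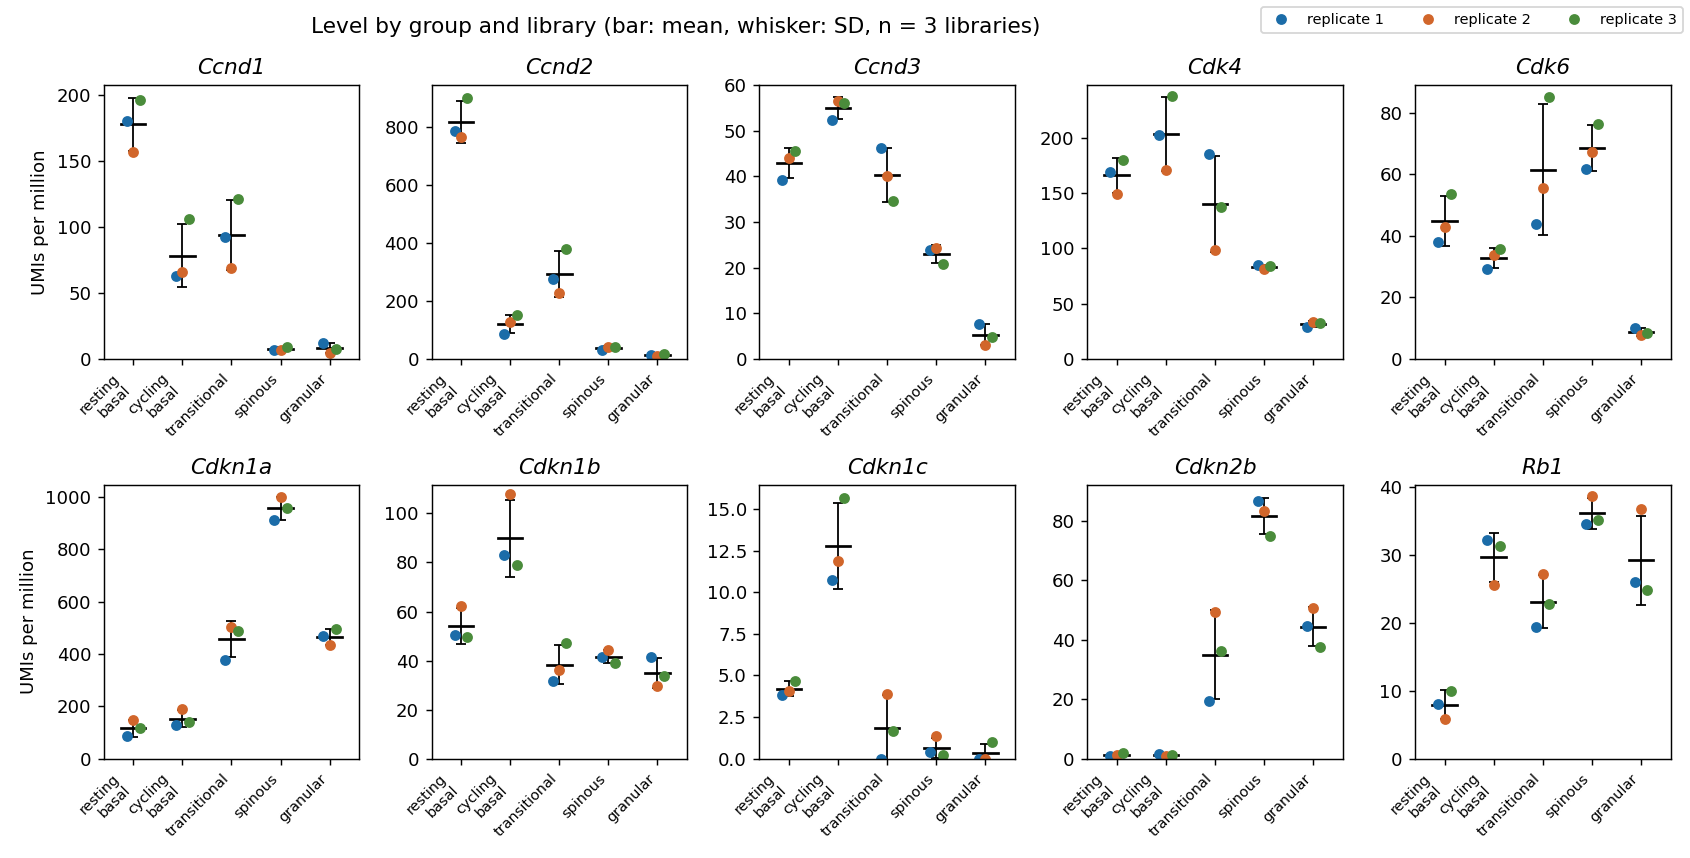
Level of each of the 10 genes in UMIs per 1000000 (vertical axis, from 0, 1 panel a gene) in 5 groups of cells (horizontal axis); points are the 3 libraries, horizontal bars the means and whiskers the SD. Ccnd1 and Ccnd2 are highest in resting basal cells (178 and 817), and Cdkn1a, Cdkn2b and Rb1 in spinous cells (957, 81.6 and 36.2).

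Ccnd2 (ENSMUSG00000000184, chr6:127125162-127152193, minus strand; GENCODE M21 on GRCm38, as all positions here) encodes cyclin D2. Its level in resting basal cells was 785, 764 and 900.4 CPM in replicates 1, 2 and 3. Transitional cells had 275, 227 and 380.4, cycling basal cells 86.6, 126 and 150.4, spinous cells 30.7, 41.4 and 40.3 and granular cells 12.5, 8.76 and 18.7. On this scale the 5 groups stood in that order with no overlap between neighbours. Ccnd2 fell in cycling against resting basal cells (log2 fold change -2.81, SE 0.13, adjusted p = 1.21e-14) and in transitional against resting basal cells (log2 fold change -1.51, SE 0.13, adjusted p = 4.32e-09). It fell again from transitional to spinous cells (log2 fold change -2.60, SE 0.14, adjusted p = 3.07e-12). From spinous to granular cells it fell by 0.77 on the log2 scale (SE 0.20, adjusted p = 0.00129), a call that ended without replicate 2 (-0.41, adjusted p = 0.0679).

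Ccnd1 (ENSMUSG00000070348, chr7:144929931-144939925, minus strand) encodes cyclin D1, the D cyclin best known as a target of growth factor and Wnt signals. It was at 181, 156 and 196 CPM in resting basal cells. The next groups were transitional cells with 92.5, 68.6 and 121 and cycling basal cells with 63, 65.7 and 106, whose ranges overlapped. Spinous cells had 6.92, 6.88 and 9.06 and granular cells 12.5, 4.55 and 7.64, again overlapping. Ccnd1 fell in cycling basal cells (log2 fold change -1.22, SE 0.12, adjusted p = 2.17e-08) and in transitional cells (log2 fold change -0.94, SE 0.14, adjusted p = 1.53e-05), the second call ending where keratins had to reach 1% of UMIs (-0.67, adjusted p = 0.106). That limit left 10, 9 and 22 transitional cells, of which those of replicate 2 were too few to be used, so every transitional value given at a keratin share of 1% rests on replicates 1 and 3. The transitional level was then 159 in place of 94.2. It fell further from transitional to spinous cells (log2 fold change -3.26, SE 0.18, adjusted p = 3.07e-12). Between spinous and granular cells it rose with TMM (log2 fold change 0.65, SE 0.24, adjusted p = 0.0202) but not on plain totals (-0.055, adjusted p = 0.841). The TMM call rested on 65 UMIs in granular cells and ended without replicate 1 (adjusted p = 0.22), without replicate 3 (0.0518) and with no replicate block (0.0625).

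Ccnd3 (ENSMUSG00000034165, chr17:47505051-47599691, plus strand), the gene of cyclin D3, was the lowest of the D cyclins in basal cells, and ranged over 39.1 to 45.6 CPM in resting basal, 52.3 to 56.6 in cycling basal, 34.6 to 46.2 in transitional, 20.8 to 24.4 in spinous and 3.15 to 7.72 in granular cells. The difference of cycling from resting basal cells was 0.32 (95% interval 0.059 to 0.57, adjusted p = 0.0658), just outside the threshold, and passed with doublets removed (0.0458) and on plain totals (0.048). Ccnd3 fell from resting basal to spinous cells (log2 fold change -0.57, SE 0.11, adjusted p = 6.11e-05) and from spinous to granular cells (log2 fold change -1.52, SE 0.21, adjusted p = 8.49e-07). From transitional to spinous cells the value was -0.40 (adjusted p = 0.0873) with TMM and -0.76 (adjusted p = 0.00289) on plain totals.

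Together the D cyclins made up 1037 ± 93.2 CPM in resting basal, 254 ± 55.4 in cycling basal, 429 ± 101 in transitional, 68.1 ± 5.82 in spinous and 26.8 ± 8.98 in granular cells. Ccnd2 held 78.7% ± 0.559 of this sum in resting basal cells and 47.3% ± 3.99 in cycling basal cells. The share of Ccnd3 moved the other way, from 4.15% ± 0.359 in resting basal cells to 22.2% ± 4.01 in cycling basal and 34% ± 4.63 in spinous cells, with no overlap of the libraries between resting basal cells and either group. These shares are descriptions and were not tested.

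**Figure D2:**
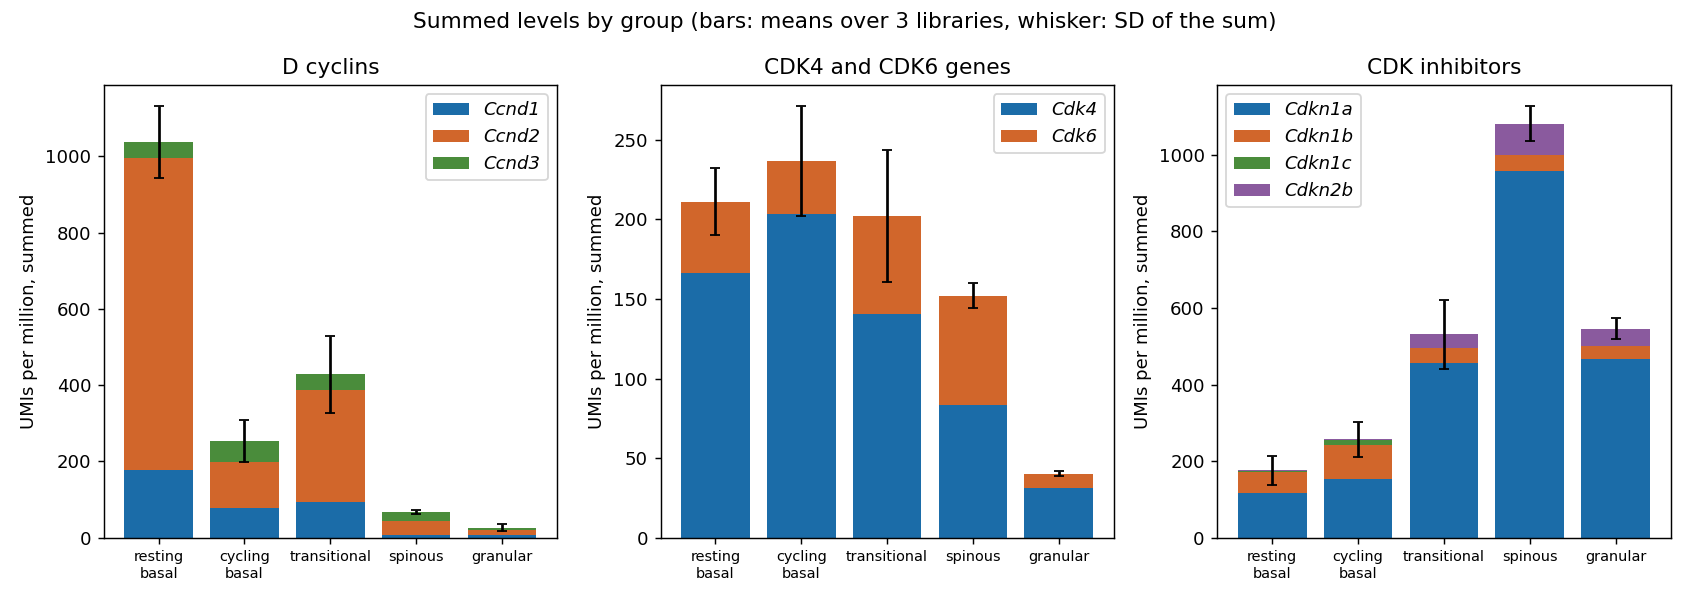
Summed CPM (vertical axes, from 0) of the D cyclins, of Cdk4 with Cdk6 and of the 4 inhibitors in each of 5 groups of cells (horizontal axes); stacked bars are means over 3 libraries and whiskers the SD of the sum. The D cyclin sum goes from 1037 in resting basal to 68.1 in spinous cells while the inhibitor sum goes from 176 to 1081.

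Cdk4 (ENSMUSG00000006728, chr10:127063534-127067920, plus strand) encodes the kinase that D cyclins activate in most cell types. Its level was 169, 149 and 180.0 CPM in resting basal cells. Cycling basal cells had 203, 171 and 237 and transitional cells 185, 98.4 and 138, both overlapping the resting basal range. Spinous cells had 84.7, 81.7 and 84.4 and granular cells 28.5, 33.3 and 32.8, each below the groups before it. Cdk4 fell from resting basal to spinous cells (log2 fold change -0.65, SE 0.094, adjusted p = 1.79e-06) and from spinous to granular cells (log2 fold change -0.70, SE 0.13, adjusted p = 3.78e-05). The rise in cycling basal cells was small (log2 fold change 0.26, SE 0.10, adjusted p = 0.0497) and passed the threshold in 5 of 15 alternative analyses, failing without each replicate in turn (adjusted p = 0.0698, 0.0696 and 0.34) and with no replicate block (0.168). Neither step through the transitional group passed (adjusted p = 0.0578 and 0.0594). The second passed in 6 of 14 alternative analyses, on plain totals (-0.67, adjusted p = 3.31e-04), with DESeq2 (0.0173), without replicate 2 (0.0251), with 1000 genes and 5% mitochondrial UMIs (0.0091), with Lor limits of 2% and 0.5% (0.041) and with transitional cells under 2 mitosis UMIs (0.0308). The first passed without replicate 1 (0.0107) and with mitosis UMIs taken as a share of the cell (0.0485).

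Promoter windows for 6 of the 10 members were in the RefSeq table, and each was searched on both strands for the GC box GGGCGG, the core promoter motif TATAAA, the Smad box GTCTAGAC, the AP-1 site TGACTCA, the E-box CACGTG, the NF-Y site CCAAT, the E2F site TTTCCCGC, the cAMP response element TGACGTCA and the p53 response element. The promoter of Cdk4 is shown because Cdk4 is the kinase gene of the set with the highest level in each of the 5 groups and its sequence carries a repeated motif. The stretch lies just before the annotated start, on the plus strand at chr10:127063285-127063533 (RefSeq, GRCm38.p6), and capitals mark 4 copies of CACGTG, the E-box letters that Myc and Max bind, and 1 GC box, read here on the other strand as CCGCCC. No motif overlaps another.
Cdk4: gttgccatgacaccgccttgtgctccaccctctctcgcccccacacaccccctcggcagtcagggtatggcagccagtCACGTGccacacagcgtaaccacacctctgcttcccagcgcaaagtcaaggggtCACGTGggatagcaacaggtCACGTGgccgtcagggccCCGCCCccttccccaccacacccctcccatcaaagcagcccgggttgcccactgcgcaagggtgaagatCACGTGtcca
CACGTG, which reads the same on both strands, occurs in 6.02% of the 32851 promoter windows of 250 bases in the same table and GGGCGG, on either strand, in 32.7%. These matches describe letters and not binding. Myc itself, in the list of the route below, was at 128 ± 11.1 CPM in resting basal and 60.4 ± 9.23 in cycling basal cells and fell there (log2 fold change -1.14, SE 0.12, adjusted p = 2.65e-08).

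Cdk6 (ENSMUSG00000040274, chr5:3341485-3531008, plus strand) encodes the other D cyclin kinase and moved differently from Cdk4. It was at 37.9, 43 and 53.7 CPM in resting basal cells and at 29.4, 33.8 and 35.6 in cycling basal cells. It was at 43.8, 55.7 and 85.2 in transitional, 61.7, 67.4 and 76.4 in spinous and 10.1, 7.71 and 8.38 in granular cells. Replicate 3 was the highest in the resting basal, cycling basal, transitional and spinous groups, and the transitional range overlapped both its neighbours in order. Cdk6 rose from resting basal to spinous cells (log2 fold change 0.95, SE 0.093, adjusted p = 3.35e-09) and fell from spinous to granular cells (log2 fold change -2.35, SE 0.15, adjusted p = 1.13e-12). The fall in cycling basal cells (log2 fold change -0.50, SE 0.14, adjusted p = 0.00558) ended without replicate 3 (adjusted p = 0.105), with no replicate block (0.0545) and against early basal cells (0.107), the resting cells with few replication transcripts. The rise to transitional cells (log2 fold change 0.50, SE 0.14, adjusted p = 0.0103) ended without replicate 2 (0.0507), without replicate 3 (0.365), with no replicate block (0.0534) and at a keratin share of 1% (0.233). The rise from transitional to spinous cells (log2 fold change 0.45, SE 0.13, adjusted p = 0.00821) was 0.091 on plain totals (adjusted p = 0.721) and ended in 5 more analyses, with adjusted p from 0.0612 with DESeq2 to 0.219 at a keratin share of 1%, among them without replicate 2 (0.0987) and with no replicate block (0.0819). Cdk6 made up 21.2% ± 2.55 of the UMIs of both kinases in resting basal cells, 45% ± 2.70 in spinous and 21.8% ± 3.87 in granular cells.

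Cdkn1a (ENSMUSG00000023067, chr17:29090976-29100727, plus strand), the gene of p21, was the most abundant inhibitor in every group. Its level was 85.4, 149 and 116 CPM in resting basal cells. It was 129, 189 and 140.5 in cycling basal cells, a range that overlapped the resting one, and 377, 504 and 488 in transitional cells. Spinous cells stood highest with 912, 1001 and 958, and granular cells had 467, 435 and 496, inside the transitional range. Cdkn1a rose at both steps to the spinous group, from resting basal to transitional cells (log2 fold change 1.97, SE 0.13, adjusted p = 1.09e-10) and from transitional to spinous cells (log2 fold change 1.42, SE 0.12, adjusted p = 5.09e-09). From spinous to granular cells it fell by 0.36 on the log2 scale with TMM (SE 0.11, adjusted p = 0.00694) and by 1.04 on plain totals. That TMM call ended with DESeq2 (-0.12, adjusted p = 0.522), with no replicate block (0.075) and with transitional cells limited to under 2 mitosis UMIs (0.187). The value in cycling basal cells was 0.34 (95% interval 0.068 to 0.60, adjusted p = 0.0606), and it passed without replicate 2 (0.39, adjusted p = 0.0272), on plain totals (0.0265) and with no low-count filter (0.0398).

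Early response and heat shock genes, a list of 18 that cell isolation can induce, moved with some of these groups. They summed to 5114 to 8188 CPM in resting basal, 3527 to 5943 in cycling basal, 4634 to 9528 in transitional, 8663 to 10858 in spinous and 13887 to 14637 in granular cells, and 13 of 18 rose and 2 fell from resting basal to spinous cells with TMM (6 and 3 on plain totals). Among all genes tested, 35.5% rose and 33.6% fell there with TMM. The granular cells had the highest sum of the list and less Cdkn1a than spinous cells. As a gauge of RNA from other cells, Lor, which granular cells hold at 54838 to 71701 CPM, was at 21.5 to 72.8 in resting basal cells. The part of either in the values of Cdkn1a was not tested.

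The stretch before the most upstream RefSeq start of Cdkn1a is shown because Cdkn1a differed most in level, in CPM, between resting basal and spinous cells. It lies on the plus strand at chr17:29090729-29090975 (RefSeq, GRCm38.p6). Capitals mark a match to the p53 response element, both of its half-sites back to back, from 51 to 32 bases before the RefSeq start. The 3 bases just before that start are not printed, as they lie inside the GENCODE gene.
Cdkn1a: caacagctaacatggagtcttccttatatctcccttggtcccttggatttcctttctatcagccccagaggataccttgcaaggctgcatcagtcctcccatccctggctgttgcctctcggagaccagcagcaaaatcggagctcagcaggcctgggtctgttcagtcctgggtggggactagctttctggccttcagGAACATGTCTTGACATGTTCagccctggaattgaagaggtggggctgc
A match, with both cores intact and at most 1 other mismatch, occurs in 0.0457% of the 32851 windows of the table. This motif was chosen after the sequence had been seen. Another RefSeq window of Cdkn1a lies downstream, at chr17:29093519-29093768. It has GC boxes and no p53 match and is not shown. Which start the counted transcripts used was not tested. Of 16 tested p53 targets other than the members, 6 rose and 3 fell from resting basal to transitional cells, and 7 rose and 0 fell from transitional to spinous cells with TMM (3 and 3 on plain totals). Among all genes tested, 13.4% rose and 9.99% fell at the first step and 21.9% and 15.7% at the second with TMM. A part of p53 in the values of Cdkn1a was not tested. Zmat3, an RNA-binding p53 target, rose from 12.5 ± 0.797 CPM in resting basal to 53.8 ± 5.09 in spinous cells (log2 fold change 2.46, SE 0.14, adjusted p = 1.36e-13). Pmaip1, the gene of the death protein Noxa, rose in transitional cells from 1.83 ± 0.141 to 8.0 ± 4.11 (log2 fold change 2.19, SE 0.44, adjusted p = 6.41e-04). Fas, a death receptor, fell from 14 ± 2.51 in resting basal to 1.60 ± 0.866 in spinous cells (log2 fold change -2.71, SE 0.26, adjusted p = 4.61e-09), and was at 1.56 ± 1.70 in transitional cells (log2 fold change -2.76, SE 0.53, adjusted p = 5.22e-04 against resting basal cells).

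Cdkn2b (ENSMUSG00000073802, chr4:89306299-89311039, minus strand), the gene of p15, was close to absent from basal cells. The resting basal cells held 24 UMIs of it, or 0.954, 1.36 and 1.94 CPM by library, and the cycling basal cells held 6 UMIs (1.43, 0.913 and 1.42). Transitional cells had 19.5, 49.2 and 36.3, spinous cells 86.7, 83.4 and 74.9 and granular cells 44.5, 50.8 and 37.7. Every transitional library lay above every basal one, and spinous cells stood above all other groups. Cdkn2b rose from resting basal to transitional cells (log2 fold change 4.62, SE 0.31, adjusted p = 7.42e-11), a 24.6-fold difference, and from transitional to spinous cells (log2 fold change 1.47, SE 0.17, adjusted p = 2.58e-07). From spinous to granular cells the TMM value was -0.21 (95% interval -0.44 to 0.025, adjusted p = 0.122), and it was -0.89 on plain totals (adjusted p = 8.19e-07). It also passed as a fall with TMM in 3 alternatives, with 1000 genes and 5% mitochondrial UMIs (-0.27, adjusted p = 0.035), at a keratin share of 1% (-0.31, adjusted p = 0.0132) and with no low-count filter (-0.27, adjusted p = 0.0467). Cdkn2a, its neighbour in the genome and the source of p16, was in the list of route genes and had no UMI in any of the 5 groups.

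The Cdkn2b promoter is shown as that of the member with the largest fold change between those groups. It is read along the gene, on the minus strand at chr4:89311040-89311282 (RefSeq, GRCm38.p6). Capitals mark TGACGTCA, the cAMP response element, which reads the same on both strands, lies from 46 to 39 bases before the RefSeq start and occurs in 1.55% of the windows. The 7 bases just before that start are not printed, as they lie inside the GENCODE gene.
Cdkn2b: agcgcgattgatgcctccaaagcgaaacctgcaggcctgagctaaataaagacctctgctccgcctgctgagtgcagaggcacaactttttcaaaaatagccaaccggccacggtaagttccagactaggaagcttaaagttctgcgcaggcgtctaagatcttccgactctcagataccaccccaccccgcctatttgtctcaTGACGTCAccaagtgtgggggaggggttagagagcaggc
The letters of the other motifs are not in this window. p15 is known as a target of TGF-beta signalling. Of the 12 tested genes of a TGF-beta list, 1 rose and 4 fell in transitional against resting basal cells, and 2 rose and 8 fell in spinous against resting basal cells with TMM. Among all genes tested, 13.4% rose and 9.99% fell in the first of these comparisons and 35.5% and 33.6% in the second. A part of TGF-beta signalling in the values of Cdkn2b was not tested. The list summed to 576 to 608 CPM in resting basal, 173 to 187 in spinous and 57.9 to 59.5 in granular cells.

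Cdkn1b (ENSMUSG00000003031, chr6:134920401-134925513, plus strand), the gene of p27, was highest in cycling basal cells, with 83.1, 108 and 78.8 CPM against 50.3, 62.4 and 49.5 in resting basal cells. It stood at 31.6, 36.3 and 47.2 in transitional, 41.6, 44.3 and 39.1 in spinous and 41.6, 29.8 and 33.8 in granular cells. The cycling range lay above all others and the resting basal range above the last 3, which overlapped each other. Cdkn1b rose in cycling basal cells (log2 fold change 0.67, SE 0.13, adjusted p = 2.56e-04). Spinous and resting basal cells differed by -0.040 with TMM (95% interval -0.26 to 0.18, adjusted p = 0.758) and by -0.38 on plain totals (adjusted p = 0.00471). From spinous to granular cells it rose with TMM (log2 fold change 0.41, SE 0.13, adjusted p = 0.00914) while the value on plain totals was -0.28, and the TMM call ended without replicate 1 (0.0517) and without replicate 3 (0.131).

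Cdkn1c (ENSMUSG00000037664, chr7:143458339-143461050, minus strand), the gene of p57 and an imprinted gene, was scarce. It was at 3.82, 4.09 and 4.69 CPM in resting basal and 10.7, 11.9 and 15.7 in cycling basal cells, 69 and 61 UMIs in all. Transitional cells held 5 UMIs, spinous cells 23 and granular cells 4. Cdkn1c rose in cycling basal cells (log2 fold change 1.61, SE 0.38, adjusted p = 0.00207) and fell from resting basal to spinous cells (log2 fold change -2.27, SE 0.44, adjusted p = 9.21e-05). The counts in the other groups were too few for a fold change to be read.

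Rb1 (ENSMUSG00000022105, chr14:73183673-73325822, minus strand) encodes the retinoblastoma protein, the brake that D cyclin kinases release. It was lowest in resting basal cells, at 8.11, 5.80 and 10.0 CPM. Cycling basal cells had 32.2, 25.6 and 31.3, transitional cells 19.5, 27.2 and 22.8, spinous cells 34.6, 38.7 and 35.2 and granular cells 26.1, 36.8 and 24.9. The other 4 groups all lay above the resting basal range. Cycling cells lay below spinous ones, while granular cells overlapped the spinous, cycling and transitional ranges. Rb1 rose in cycling basal cells (log2 fold change 1.88, SE 0.21, adjusted p = 1.2e-07), in transitional cells (log2 fold change 1.54, SE 0.28, adjusted p = 1.98e-04) and from transitional to spinous cells (log2 fold change 0.98, SE 0.21, adjusted p = 6.74e-04), the last ending at a keratin share of 1% (0.65, adjusted p = 0.336). Transitional cells also carried mitosis transcripts: a mitosis list that holds no gene of the rule summed to 265 to 627 CPM there and 71.8 to 119 in resting basal cells. With transitional cells limited to under 2 UMIs of the rule's mitosis genes, the rise of Rb1 over resting basal cells was 1.56 (adjusted p = 3.33e-04). From spinous to granular cells Rb1 rose with TMM (log2 fold change 0.37, SE 0.14, adjusted p = 0.0185) and fell on plain totals (-0.31, adjusted p = 0.0477), and the TMM call ended without replicate 2 (0.124) and at a keratin share of 1% (0.117).

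The 4 inhibitors summed to 176 ± 38.3 CPM in resting basal, 257 ± 46.2 in cycling basal, 532 ± 90.1 in transitional, 1081 ± 45 in spinous and 546 ± 27.5 in granular cells. Cdkn1a held 65.6% ± 4.23 of that sum in resting basal and 88.5% ± 0.860 in spinous cells, and Cdkn1b 31.1% ± 4.05 and 3.86% ± 0.185. Inhibitor UMIs per D cyclin UMI were 0.172 ± 0.0462 in resting basal, 1.04 ± 0.253 in cycling basal, 1.29 ± 0.414 in transitional, 15.9 ± 0.873 in spinous and 22.1 ± 7.96 in granular cells. This ratio is taken within a library and group and so does not depend on the scaling. Resting basal cells lay below all other groups in every library, cycling and transitional cells overlapped, and both lay below spinous and granular cells. The granular libraries (16.945, 31.3 and 18.2) lay above the spinous ones (15.3 to 16.903), the closest only just. Counts of transcripts do not give amounts of protein.

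Cycling against resting basal cells asks how the regulators of G1 differ in cells that hold mitosis transcripts. Of the 10 members, 4 rose (Rb1, Cdkn1c, Cdkn1b and Cdk4), 3 fell (Ccnd2, Ccnd1 and Cdk6) and 3 did not pass. Among all 10665 genes tested, 35.0% were called, 18.9% higher and 16.1% lower in cycling cells. On the TMM scale the libraries of the groups did not overlap for 7 of 10 members, against 45.4% of all genes tested. The other genes of the G1 to S route, a list of 30 with cyclins E and A, the E2F family, the Rb relatives, other inhibitors and Myc, had 16 that rose and 3 that fell of 29 tested, with a median log2 fold change of 0.74 against -0.042 over all genes tested. Cdkn3, a phosphatase of cyclin-dependent kinases, had the largest rise of that list, from 1.57 ± 0.632 to 213 ± 9.95 CPM (log2 fold change 6.97, SE 0.18, adjusted p = 7.55e-19). These groups were cut by mitosis genes, and the mitosis list without those genes had a median of 6.55 here. Whether the rise of Cdkn3 follows that cut or belongs to G1 was not tested. Of 16 p53 targets, 3 rose and 5 fell, with Pmaip1 at 4.85 ± 2.14 against 1.83 ± 0.141 (log2 fold change 1.39, SE 0.41, adjusted p = 0.0112) and Bbc3, the gene of the death protein Puma, at 3.94 ± 2.80 against 9.80 ± 3.73 (log2 fold change -1.16, SE 0.35, adjusted p = 0.0118). Of the 18 early response and heat shock genes, 1 rose and 16 fell. With no replicate block, that is with the libraries not paired, 3 members rose and 2 fell.

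Transitional against resting basal cells is the first step out of the basal layer. Here 4 members rose (Cdkn2b, Cdkn1a, Rb1 and Cdk6), 2 fell (Ccnd2 and Ccnd1) and 4 did not pass, where 23.3% of all genes tested were called (13.4% higher, 9.99% lower). On the TMM scale the libraries of the groups did not overlap for 6 of 10 members, against 34.0% of all genes tested. Of the route list 5 rose and 1 fell of 29. Cdkn3 rose to 12.1 ± 3.06 CPM (log2 fold change 2.94, SE 0.43, adjusted p = 1.69e-05), where the mitosis list had a median of 2.98. Fbxw7, the ligase subunit that sends cyclin E and Myc to degradation, fell from 73.6 ± 12.8 to 43.3 ± 13 (log2 fold change -0.74, SE 0.20, adjusted p = 0.00869). Scrublet, a doublet caller, marked 11 of the 196 transitional cells, against 33 of all 5340 cells, and 14 transitional cells held 5 or more mitosis UMIs. Marked cells were kept, and without them 4 members rose and 2 fell. Without replicate 3 the genes called in all went from 2490 to 1178, and the members from 4 to 3 that rose.

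From transitional to spinous cells, where basal keratins are lost, 4 members rose (Cdkn2b, Cdkn1a, Rb1 and Cdk6), 2 fell (Ccnd1 and Ccnd2) and 4 did not pass with TMM. The background was 37.6% of genes called (21.9% higher, 15.7% lower). On the TMM scale the libraries of the groups did not overlap for 7 of 10 members, against 46.1% of all genes tested. Plain totals moved the median log2 fold change of all genes from 0.046 to -0.31 and the higher share of calls from 58.2% to 24.8%, and then 3 members rose and 4 fell. Of the route list 3 rose and 12 fell of 29 with TMM (1 and 15 on plain totals). Cdkn2c, the gene of the INK4 inhibitor p18, rose from 47 ± 9.46 to 62.2 ± 5.06 CPM (log2 fold change 0.85, SE 0.19, adjusted p = 0.00107), and Zmat3, the p53 target above, rose to 53.8 ± 5.09 from 24.7 ± 10.9 (log2 fold change 1.37, SE 0.20, adjusted p = 7.67e-06). E2f7, a repressor of the E2F family, had 5 UMIs in transitional and none in spinous cells, too few for a fold change to be read.

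Both steps together, spinous against resting basal cells, share their profiles with the 2 comparisons before. In this contrast 4 members rose (Cdkn2b, Cdkn1a, Rb1 and Cdk6), 5 fell (Ccnd1, Ccnd2, Cdkn1c, Cdk4 and Ccnd3) and 1, Cdkn1b, did not pass. The background was high, 69.2% of genes called (35.5% higher, 33.6% lower), so a call by itself sets no gene apart here. On the TMM scale the libraries of the groups did not overlap for 9 of 10 members, against 71.4% of all genes tested. Plain totals moved the median of all genes from 0.0048 to -0.33 and the higher share of calls from 51.4% to 31.5%, and 4 members then rose and 6 fell. Of the route list 5 rose and 17 fell of 29 with TMM (4 and 23 on plain totals). E2f2, an activator of the E2F family, rose from 3.49 ± 1.83 to 22 ± 2.94 CPM (log2 fold change 2.94, SE 0.19, adjusted p = 1.59e-12). E2f7 went from 12 UMIs to none. On plain totals that is at least 8.17-fold lower, with a floor of 3 UMIs over the spinous group. The bound makes no allowance for counting error in the 12. Of the p53 targets 8 rose and 4 fell of 16 with TMM (7 and 6 on plain totals).

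Granular against spinous cells compares the last living layer with the one below. The scale matters most here, as the median log2 fold change of all genes was -0.27 with TMM and -0.96 on plain totals, and 42.6% and 22.5% of calls were higher. With TMM 3 members rose (Ccnd1, Cdkn1b and Rb1), 5 fell (Cdk6, Ccnd3, Ccnd2, Cdk4 and Cdkn1a) and 2 did not pass, but on plain totals 0 rose and 7 fell. The background was 71.6% of genes called (30.5% higher, 41.1% lower). On the TMM scale the libraries of the groups did not overlap for 5 of 10 members, against 73.2% of all genes tested. Cdk6 and Ccnd3 fell the most, by 2.35 and 1.52 on the log2 scale with TMM and by 3.05 and 2.22 on plain totals. Of the route list 10 rose and 11 fell of 29 with TMM (5 and 16 on plain totals). Mxd1, which competes with Myc for Max, rose from 9.75 ± 1.57 to 253 ± 48.8 CPM (log2 fold change 5.37, SE 0.11, adjusted p = 1.06e-21). E2f6 went from 50 UMIs to none and Fas from 58 UMIs to none. On plain totals, with a floor of 3 UMIs over the granular group, these were at least 4.32-fold and 5.01-fold lower. The bounds were not computed with TMM, and the median of all genes was itself -0.96 on plain totals. Of 16 p53 targets 3 rose and 6 fell with TMM (3 and 13 on plain totals), with the stress kinase Plk2 at 65.3 ± 9.30 against 14.5 ± 3.71 (log2 fold change 2.84, SE 0.11, adjusted p = 4.39e-17). Without replicate 1 or without replicate 3, 1 member rose with TMM, and without replicate 2, 2. With transitional cells limited to under 2 mitosis UMIs, a group outside this comparison, the TMM median was -0.076 and 50.4% of calls were higher. Then 3 members rose and 4 fell, with Ccnd1 at 0.84, Cdkn1b at 0.61, Rb1 at 0.57 and Cdkn1a, not passed, at -0.17. TMM values here thus also depend on cells outside both groups. The 4 tested Langerhans cell markers all rose with TMM (3 on plain totals), with a median log2 fold change of 2.10 (1.43 on plain totals). Epcam did so by 3.22. Cd74, H2-Aa and H2-Ab1 were at 56.7, 25.6 and 18.9 CPM in granular replicate 2 and at no more than 2.37, 3.94 and 1.19 in the others, and Cd207 had 2 UMIs in granular cells. Their part in the values of the members was not tested.

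**Figure D3:**
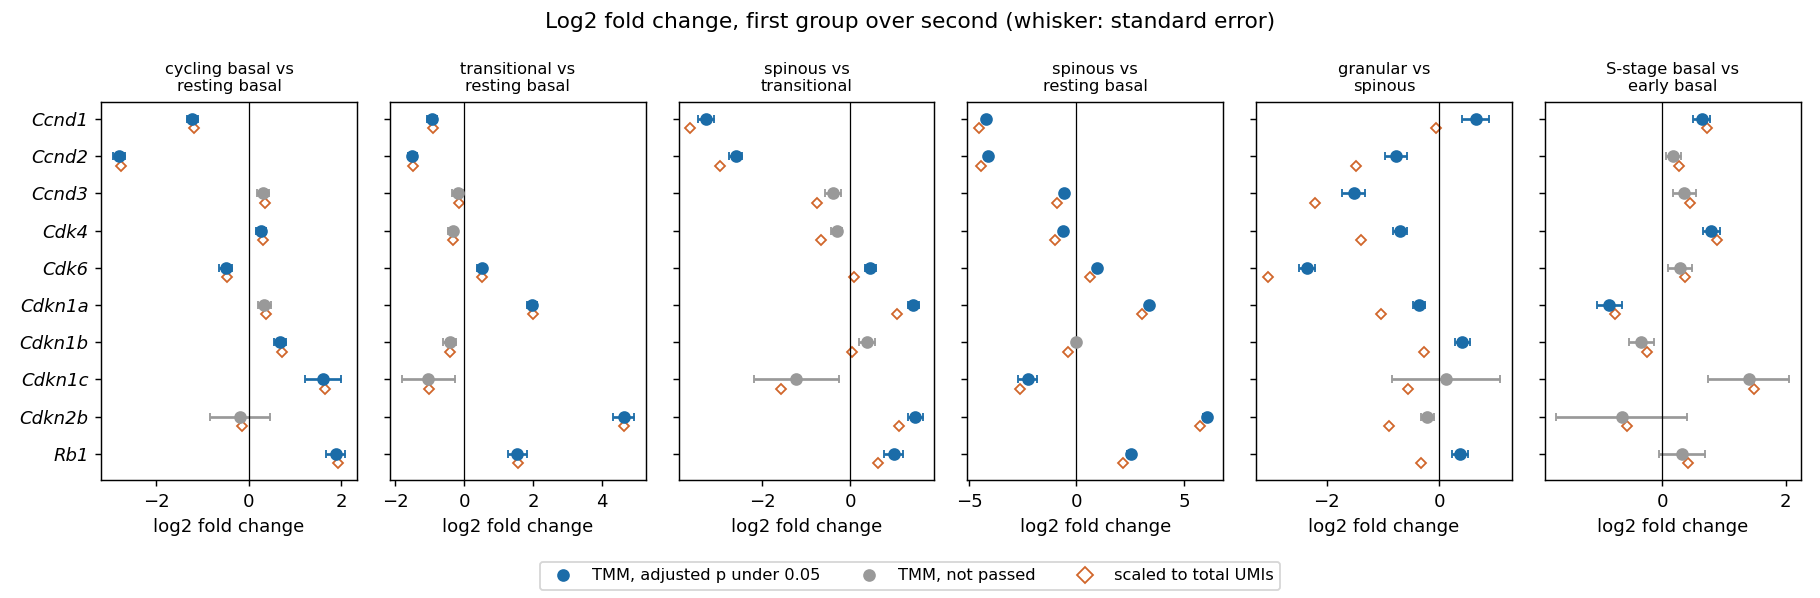
Log2 fold change of each of the 10 genes (rows) in 6 comparisons (panels, with horizontal axes of their own); circles are TMM values with whiskers of 1 standard error, blue where the adjusted p is under 0.05 and grey otherwise, and open diamonds are values on plain totals. In granular against spinous cells Ccnd1, Cdkn1b, Cdkn1c and Rb1 change sign between the scales (0.65 and -0.055 for Ccnd1), while in spinous against resting basal cells no called gene does.

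The resting basal cells were split by the share of their UMIs in 20 replication genes, none of them among the 10: S-stage cells had 0.1% or more (25, 51 and 113 cells) and early cells under 0.02% (148, 335 and 270 cells). The rest of the 378, 824 and 777 resting basal cells lay between these limits and entered neither group. As the limits are shares, the S-stage name can rest on a few UMIs in shallow cells. Ccnd1, Ccnd2 and Cdk4 had their highest levels of all groups in the S-stage cells. Ccnd1 was at 288, 249 and 253 CPM there and at 156, 133 and 168 in early cells, with no overlap, and rose (log2 fold change 0.64, SE 0.14, adjusted p = 0.00302). Cdk4 was at 323, 297 and 253 against 147, 138 and 167 and rose (log2 fold change 0.80, SE 0.14, adjusted p = 1.77e-04). Ccnd2 was at 1002, 899 and 889 against 714, 739 and 834, a difference of 0.18 (95% interval -0.062 to 0.42, adjusted p = 0.503) that did not pass although the libraries did not overlap. Cdkn1a was at 50.4, 123 and 69.9 in S-stage and 92.5, 153 and 135 in early cells; each library was lower in S-stage cells, the ranges overlapped, and it fell (log2 fold change -0.86, SE 0.20, adjusted p = 0.00655). That call ended without replicate 3 (-0.70, adjusted p = 0.279), with no replicate block (0.0537), at a keratin share of 1% (0.151) and in cells with 1000 genes and at most 5% mitochondrial UMIs (0.0522), a limit that left 9, 14 and 57 S-stage cells and so dropped replicate 1.

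In all 2 members rose, 1 fell and 7 did not pass between S-stage and early cells, where 5.76% of 9985 genes were called (4.63% higher, 1.13% lower). On the TMM scale the libraries of the groups did not overlap for 6 of 10 members, against 21.9% of all genes tested. Without replicate 2, whose S-stage cells had a median of 2898 UMIs against 14103 and 9829 in the others, 2 members rose and 1 fell, and 351 in place of 575 genes were called. Cdkn1b was at 48.9 ± 9.19 against 55.4 ± 6.65 CPM and Ccnd3 at 54.8 ± 3.99 against 41.4 ± 2.62, neither passing (adjusted p = 0.44 and 0.349). Of the route list 14 rose and 0 fell of 29. Ccne1, the cyclin E gene that follows D cyclins in the cycle, had 49 UMIs in S-stage and 3 in early cells, a ratio of levels of 57.4 with an exact counting interval from 18.5 to 288. Of 16 p53 targets 0 rose and 1 fell, the latter Perp, a desmosome protein (2578 ± 211 against 3237 ± 56.7, log2 fold change -0.42, SE 0.10, adjusted p = 0.00919). Fibroblast markers reached 282 CPM in the S-stage cells of replicate 1, all as Dcn, and without that replicate the rises were 0.54 for Ccnd1 (adjusted p = 0.0324) and 0.66 for Cdk4 (0.00526). The early response list summed to 3645 to 8373 against 4899.6 to 8257.

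Basal cells with 2 to 4 UMIs of the mitosis genes, 70 in all, lay between S-stage and cycling cells for both major D cyclins. Ccnd2 was at 479, 441 and 499 CPM in these cells, below every S-stage library (889 to 1002) and above every cycling one (86.6 to 150.4). Ccnd1 was at 218, 165 and 192, also between both ranges. Rb1 was at 25.9 ± 3.43 there, against 12.1 ± 2.59 in S-stage and 29.7 ± 3.61 in cycling cells, and Cdkn1c, on 10 UMIs, at 19.9 ± 8.35. These cells, 12, 19 and 39 by library, entered no test. With early cells in place of all resting basal cells, an alternative chosen after seeing the data, cycling cells had log2 fold changes of -2.73 for Ccnd2, -1.02 for Ccnd1 and 1.76 for Rb1, all still called.

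**Figure D4:**
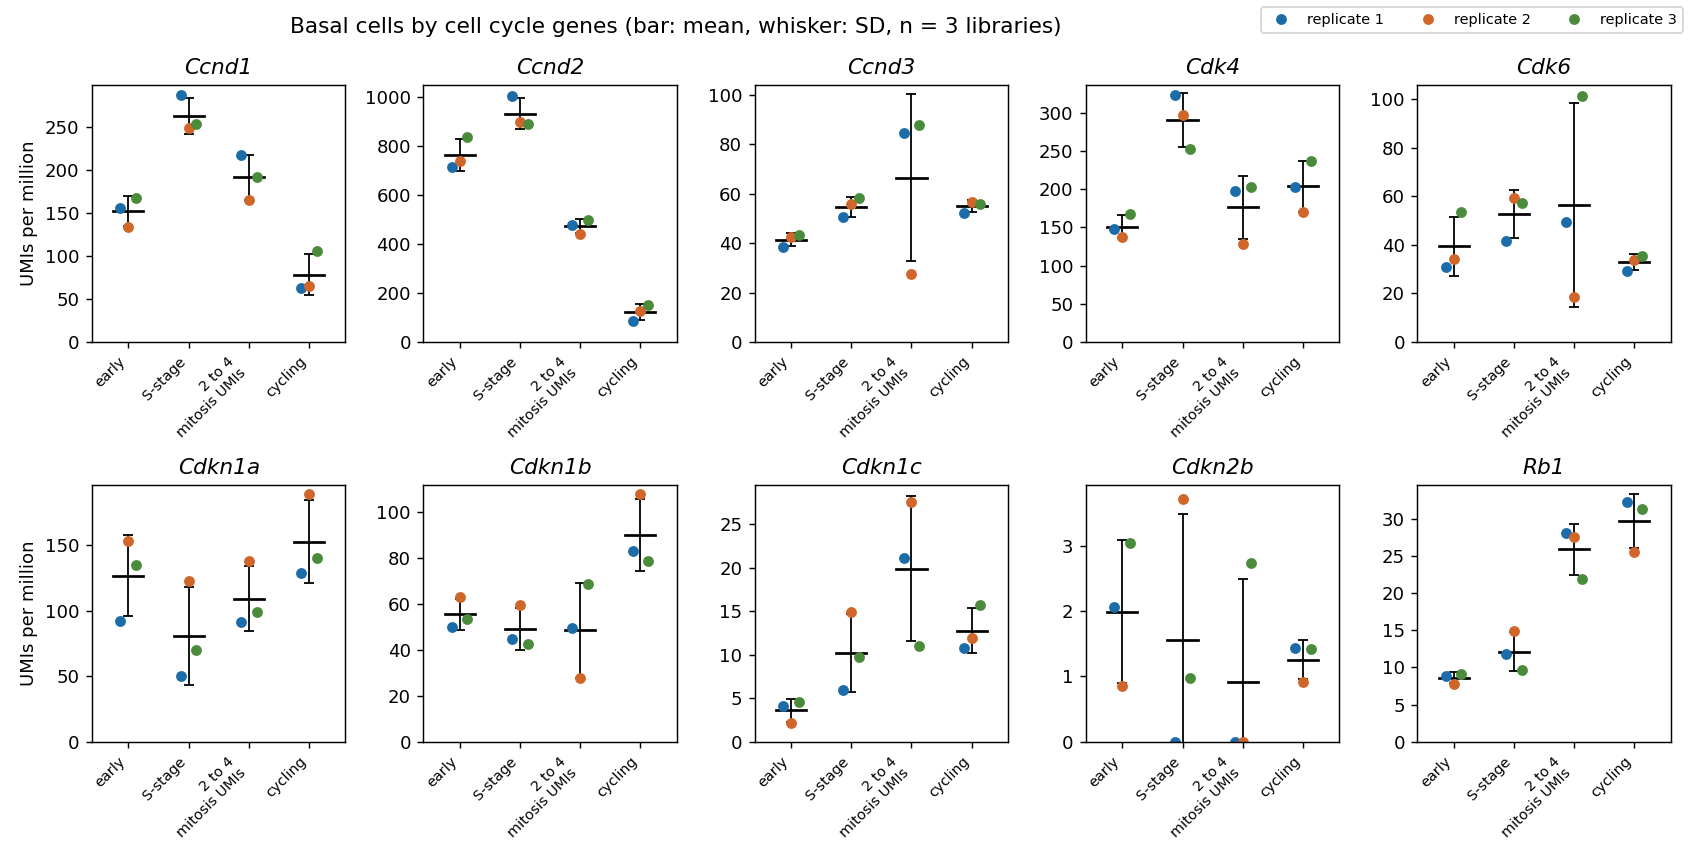
Level of each of the 10 genes in UMIs per 1000000 (vertical axis, from 0) in basal cells ordered by cell cycle genes (horizontal axis: early, S-stage, 2 to 4 mitosis UMIs, cycling); points are 3 libraries, bars means and whiskers SD. Ccnd2 has means of 762, 930.1, 473 and 121 in that order.

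Cells with under 2 mitosis UMIs and Lor under 1% were also ordered by the share of Krt1 and Krt10 among the 4 keratins, in 8 steps chosen after seeing the data, followed by 3 bins of Lor share that hold all granular cells. Ccnd2 was at 851 ± 89.6 CPM below 1%, 638 ± 54.7 at 5 to 20% and 354 ± 35.5 at 20 to 50%. It then went through 249, 137 and 72 to 24.6 ± 1.99 at 99% or more. Ccnd1 stayed at 182, 179.6 and 179 over the first 3 steps and was at 130.1 ± 26.7 at 20 to 50% and 54 ± 24.1 at 50 to 80%. Among cells with 5 to 20% the libraries of Ccnd2 lay below those with 1 to 5%, and those of Ccnd1 overlapped them. Cdkn1a was at 81.2 ± 31.4, 105 ± 29.1 and 181 ± 16.4 over the same first steps, and at 1009.8 ± 52.8 in the last. Cdkn2b was at 0.497, 2.14 and 0.289 up to 20%, at 15.2 ± 6.33 between 20 and 50% and at 88.9 ± 5.47 in the last step. Rb1 went from 7.55 ± 2.23 to 38.2 ± 2.28, and Cdk4 from 171 ± 27 to 78.6 ± 1.25. The steps from 50 to 95% held 18 cells in the smallest library, and the lower Lor bins 17 and 14.

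Within the granular group the levels on plain totals differed with the Lor share. Cells with Lor at 1 to 4%, 4 to 8% and 8% or more of UMIs had Cdk6 at 16.5 ± 2.52, 7.92 ± 5.97 and 1.41 ± 2.44 CPM, and Cdk4 at 50.4 ± 4.47, 28.7 ± 3.73 and 11.7 ± 3.40. Cdkn1a was at 624 ± 37.4, 425 ± 39.2 and 323 ± 77.6, and Rb1 at 46.2 ± 3.94, 27.1 ± 8.20 and 12 ± 7.37. Cdkn2b was at 54 ± 10.6, 40.2 ± 9.06 and 35.6 ± 6.57. Cdk6 thus lay below its spinous range already in the lowest bin, while Rb1 in that bin was above it. Lor is itself part of the total on this scale.

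**Figure D5:**
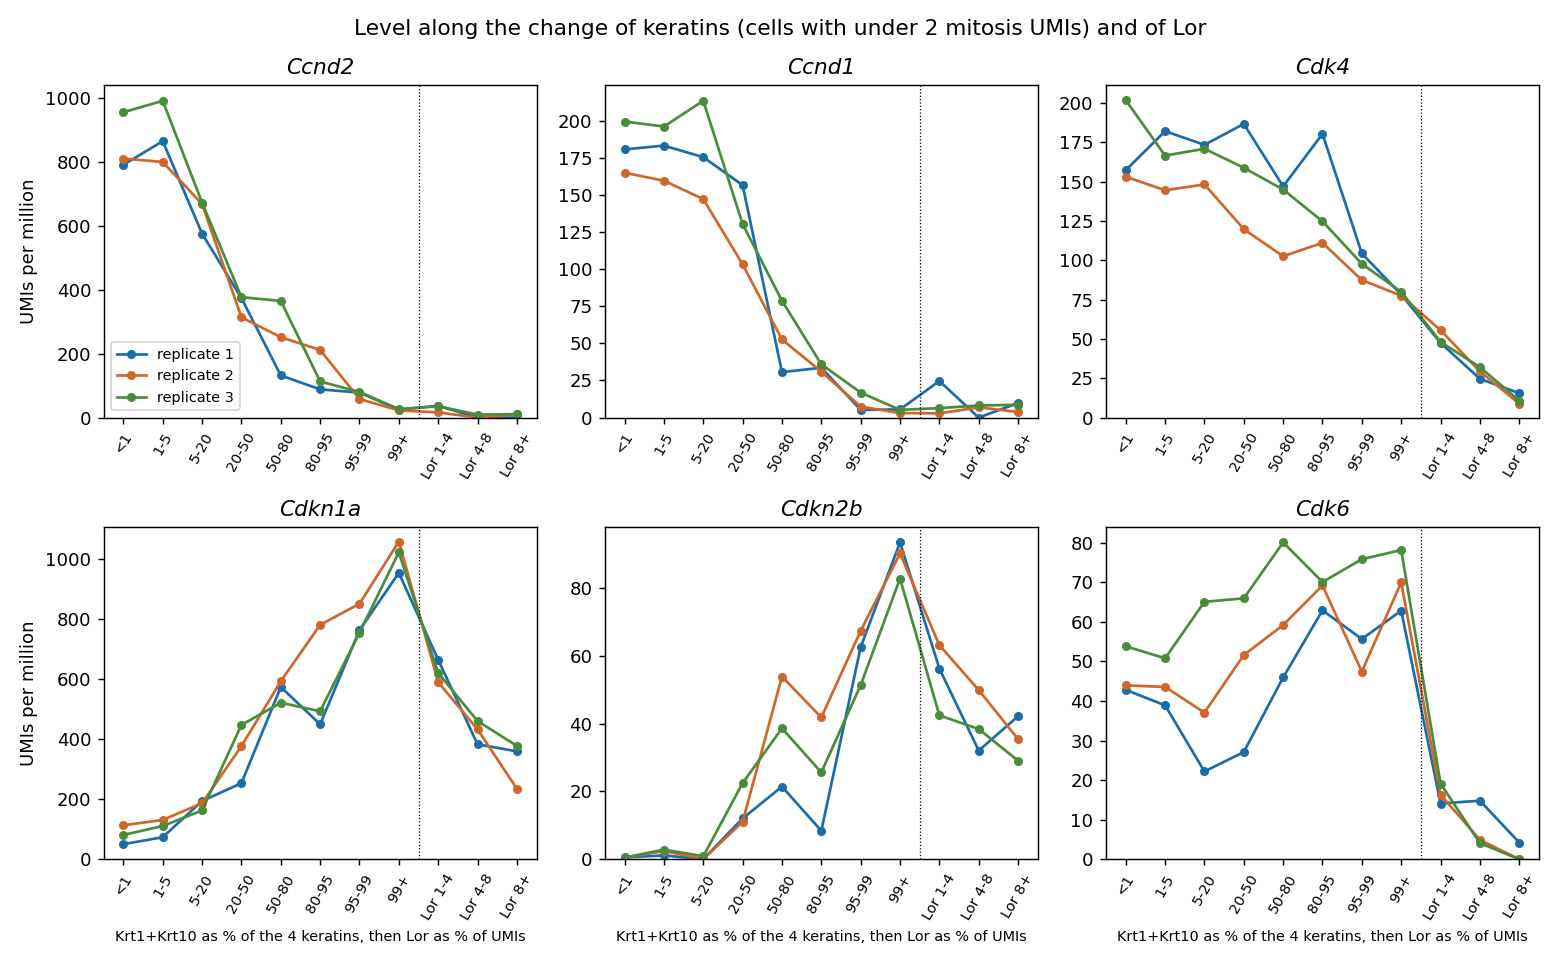
Levels of 6 genes in CPM (vertical axes, from 0) along 8 steps of the share of Krt1 and Krt10 among 4 keratins in percent and then 3 bins of Lor in percent of UMIs (horizontal axis, bins divided by the dotted line); each line is 1 of 3 libraries. Ccnd2 goes from 851 in the first step to 24.6 in the eighth and Cdkn1a from 81.2 to 1009.8, as means over the libraries.

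The spread between cells of a group was described for the leading genes. In resting basal cells the median cell held 4.0 to 7.0 UMIs of Ccnd2 by library, and the cell ranked 10% from the top 12 to 18. The 10% of cells with the most Ccnd2 carried 28.6 to 30.7% of its UMIs in that group and 65 to 71.2% in spinous cells, where the median cell held none. For Cdkn1a the order was the reverse: the top 10% carried 47.2 to 53.4% of UMIs in resting basal cells, whose median cell held none, and 26.2 to 27.3% in spinous cells, whose median cell held 11 to 16. Median depth differed between these groups, and the UMI counts per cell were not thinned to a common depth.

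Genes whose pattern was most like a member's were ranked by Pearson's r of log2(TMM-scaled CPM + 1) over the 15 profiles (5 groups in 3 libraries), among 2648 genes with a mean of at least 50 CPM. For Ccnd1 they were Jag2, the Notch ligand gene Jagged2 (r = 0.963), Postn (0.956) and Krt5 (0.956), the last a gene of the rule. For Ccnd2 they were Slc6a6 (0.934) and the hemidesmosome genes Plec (0.916) and Dst (0.910). For Cdkn1a they were Pim3 (0.981), Tollip (0.981) and Atp6v1a (0.979), and for Cdkn2b they were Skint9 (0.990), Ly6g6c (0.989) and Ptgs1 (0.987). The nearest gene was Sfn for Cdk6 (0.958), Atp5b for Cdk4 (0.971), Snrpb for Ccnd3 (0.978), Kmt5a for Rb1 (0.968), Lsm4 for Cdkn1c (0.904) and Atp5f1 for Cdkn1b (0.846), the lowest of these. Dst is in the basal and Ptgs1 in the spinous marker list. The profiles share libraries and groups and are not independent, so no p is given.

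In the annotation, 8 of the 10 members overlap another gene on the opposite strand, all but Cdkn1b and Cdkn2b. Among these partners are Tspan31 at Cdk4, Bysl at Ccnd3 and Lpar6 within Rb1. Strand use in counting is a point not given in the sources used here, so reads of such pairs may not be told apart where their exons overlap.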

How the data were processed

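Single epidermal cells were profiled in 3 libraries of the 5′ V(D)J kit of 10x Genomics. The deposited matrices hold UMI counts per gene and cell. The submitters' processing notes name Cell Ranger 3.1.0 and the build mm10; the counting settings, strand use included, are not given in the sources used here. The members and lists were chosen with earlier results of these data known.

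Cells needed 500 genes and no more than 10% mitochondrial UMIs, and Scrublet doublets (scanpy 1.11.5) were kept in the main analysis. Counts were summed per library and group of at least 10 cells, filtered with filterByExpr and scaled by TMM. They were then tested with edgeR 4.0.16 (R 4.3.3; glmQLFit and glmQLFTest) with the library as a block, over 10665 genes, or 9985 where S-stage and early cells replaced resting basal cells. The block pairs profiles of 1 library, and their deviations from group means correlated with r from 0.101 to 0.250. Each SE was derived from the test, as the size of the log2 fold change over the square root of the F statistic. A 95% interval reaches 1.96 SE to either side and is not adjusted for the number of genes. The script was tested on simulated data in which a small set of genes rose and fell in equal number. That test does not bear on the scaling of comparisons where most genes differ. Named genes are the 10 members, the tested gene of the route and p53 lists with the largest called rise and fall in each comparison, and the 3 genes closest in pattern to a member. Alternatives were DESeq2 1.42.0, plain totals, no low-count filter, no block, each library left out, doublets removed, and other limits on cells, keratins, Lor and mitosis genes. Depth was 15926683 to 28176712 UMIs a library, and a member at 1 CPM rests on a few UMIs in a group.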

Additional observations from a re-analysis of the deposited data

How the results depend on the processing

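Of 870 values of the members' log2 fold changes under alternatives, 794 kept their direction and their side of the threshold, 40 no longer passed, 20 newly passed and 16 changed sign; 484 of 500 levels moved by less than 1 SD. In spinous against resting basal cells every member but Cdkn1b kept its call under each alternative. On plain totals the granular against spinous values changed sign for Ccnd1 (-0.055), Cdkn1b (-0.28), Cdkn1c (-0.55) and Rb1 (-0.31), where the median of all genes moved from -0.27 to -0.96. The other changes of sign were of values that had not passed, and their cause was not tested. At a keratin share of 1% they were Ccnd3 from transitional to spinous cells (0.22), Cdkn1b from resting basal to spinous cells (0.048) and Cdkn2b in cycling cells (0.11). With 1000 genes and 5% mitochondrial UMIs they were Ccnd2 (-0.0045), Cdkn2b (0.42) and Rb1 (-0.053) in S-stage cells. With single libraries left out, values ranged over zero for Cdkn1b in spinous against resting basal cells (-0.080 to 0.052), Ccnd3 in transitional against resting basal cells (-0.29 to 0.015), Cdkn1c in granular against spinous cells (-5.02 to 1.86) and Cdkn2b in S-stage against early cells (-1.85 to 0.20). With no low-count filter Cdkn1b in spinous against resting basal cells was 0.039, and with DESeq2 Cdkn2b in granular against spinous cells was 0.0075.

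Genes called in transitional against resting basal cells went from 2490 to 1118 at a keratin share of 1% and to 1178 to 2151 with single libraries left out. From transitional to spinous cells they went from 4007 to 1738 and to 2668 to 3392 in the same alternatives. In S-stage cells they went from 575 to 301 with 1000 genes and 5% mitochondrial UMIs and to 233 to 384 with single libraries left out. The counts with libraries left out rest on fewer samples, and so do both others: the keratin limit left 9 transitional cells in replicate 2 and the stricter cells 9 S-stage cells in replicate 1, and those profiles were dropped. With no replicate block the counts were 3178 in cycling, 2096 in transitional, 3572 from transitional to spinous, 6757 from resting basal to spinous, 7374 in granular and 457 in S-stage cells, each within 1.5 times the paired count. Depth limits Cdkn1c throughout and Cdkn2b in basal cells.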

Other observations

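Barcodes that failed the cell filter numbered 164, 265 and 309 in replicates 1, 2 and 3. They held Cdk6 at 163, 127 and 145 CPM, on 65, 52 and 98 UMIs, while the highest library of any of the 5 groups had 85.2. Their Cdk4 level was 75.2, 61.2 and 38.5, so Cdk6 exceeded Cdk4 in each library, which no library of the 5 groups showed. Ccnd2 was at 534, 580.2 and 554 and Cdkn1a at 198, 401 and 355 in the same barcodes.

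The 231 cells that passed the filter and met no group's rule had both Ccnd2 and Cdkn1a. Ccnd2 was at 343, 295 and 196 CPM and Cdkn1a at 191, 367 and 389. Ccnd3 was at 98.1, 80.5 and 94.7 in them, above every library of the 5 groups, on 18, 59 and 55 UMIs.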
